A study of Mus musculus with 2 samples.

Results

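The genes described here encode the axoneme of motile cilia, with its dynein motors, the factors that assemble them and the transcription factors that switch the set on. They were taken by name from the GENCODE M21 annotation of the mouse. The rule took protein-coding genes whose symbols begin with Dnah, Dnaic, Dnaaf, Drc, Tekt, Rsph or Spag and a digit, plus 12 further genes from Foxj1 to Ak7. It finds 61 genes, of which 60 are among the 37315 identifiers of the count files, and Dnah7c is not. A mean of at least 1 CPM (counts scaled to a common library size) over the 2 libraries was reached by 53 of them, and by 14518 genes in all. Those 53 are called the measured members.

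Messenger RNA was sequenced from lung tissue of C57BL/6 mice, an inbred laboratory strain. There was 1 library from animals exposed to PM2.5, fine airborne particulate matter, and 1 control library, and both titles carry the number 12 and the letter W. Dose, route, duration, age, sex and the number of animals pooled in a library are not given in the labels. The PM2.5 library held 57435027 counts and the control library 62788045. With 1 library per group the ratios below describe these 2 libraries and not the conditions, and the bracketed 95% intervals (exact Clopper-Pearson) cover counting error only.

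Motile cilia are built on microtubule doublets that surround a central pair. Outer and inner rows of dynein arms slide the doublets against each other, radial spokes and the nexin-dynein regulatory complex control the motors, and cytoplasmic assembly factors load the arms before they enter the cilium. In the lung these cilia stand on the multiciliated cells of the airway lining, where they clear mucus. FOXJ1 is the main transcriptional activator of the set, and RFX factors bind its promoters at a site called the X-box. In bulk lung, fewer ciliated cells and less RNA per ciliated cell cannot be told apart.

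RefSeq windows of 300 bases on GRCm38.p6, from 250 bases before to 50 after the annotated start, were given for 51 of the 61 members. An X-box, searched on both strands with its degenerate letters and a gap of up to 3 bases, lay in 8 of these 51 (15.7%), against 474 of 27025 genes in all (1.75%). The shorter motif GTTGCC, which lies inside some X-boxes, lay in 21 of the 51 (41.2%) and in 14.1% of all genes, on either strand. TGTTTAC, a forkhead core, lay in 3 of the 51 (5.88%) and in 4.05% of all genes. A match is a description of these letters and not a site of binding. The 3 windows below are shown whole because they come from a gene called higher in the PM2.5 library (the dynein light chain Dynlrb2), one near equality (the intermediate chain Dnaic2) and one with a ratio below 1 (the central apparatus gene Hydin). Capitals mark the X-box. Dynlrb2 is at chr8:116504765-116505064, Dnaic2 at chr11:114727169-114727468 and Hydin at chr8:110266727-110267026, all on the plus strand.
Dynlrb2: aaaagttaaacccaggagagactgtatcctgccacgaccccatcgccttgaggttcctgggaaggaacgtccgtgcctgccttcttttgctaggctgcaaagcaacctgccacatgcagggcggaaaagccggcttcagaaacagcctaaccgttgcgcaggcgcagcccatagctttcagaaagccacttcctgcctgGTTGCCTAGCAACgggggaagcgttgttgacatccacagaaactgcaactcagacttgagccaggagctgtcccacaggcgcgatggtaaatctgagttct
Dnaic2: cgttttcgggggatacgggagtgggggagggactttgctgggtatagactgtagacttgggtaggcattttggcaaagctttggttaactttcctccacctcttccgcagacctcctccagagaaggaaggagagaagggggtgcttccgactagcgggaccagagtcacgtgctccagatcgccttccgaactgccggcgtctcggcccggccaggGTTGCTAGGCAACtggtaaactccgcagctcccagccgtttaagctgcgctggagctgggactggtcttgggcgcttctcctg
Hydin: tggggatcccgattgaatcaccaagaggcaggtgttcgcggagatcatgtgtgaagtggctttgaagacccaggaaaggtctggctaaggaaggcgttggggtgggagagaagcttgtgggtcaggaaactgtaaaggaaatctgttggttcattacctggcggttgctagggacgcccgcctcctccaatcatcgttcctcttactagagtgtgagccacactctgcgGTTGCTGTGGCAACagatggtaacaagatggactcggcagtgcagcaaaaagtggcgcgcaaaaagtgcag

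The other 5 are shown as the X-box with 23 bases on each side, on the strand of the gene. Dnaaf2 (chr12:69198410-69198469), Rsph3b (chr17:6948312-6948370) and Tekt2 (chr4:126325682-126325740) lie on the minus strand. Dnaic1 (chr4:41569752-41569810) and Spag16 (chr1:69826844-69826903) lie on the plus strand.
Dnaaf2: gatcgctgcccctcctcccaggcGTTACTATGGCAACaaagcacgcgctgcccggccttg
Dnaic1: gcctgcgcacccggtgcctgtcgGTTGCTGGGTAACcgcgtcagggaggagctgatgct
Rsph3b: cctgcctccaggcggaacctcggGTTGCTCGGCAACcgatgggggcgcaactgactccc
Spag16: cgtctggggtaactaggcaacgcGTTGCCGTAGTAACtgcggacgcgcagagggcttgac
Tekt2: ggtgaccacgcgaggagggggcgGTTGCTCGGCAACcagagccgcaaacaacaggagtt

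The 8 genes with an X-box in the window ranged in log2 ratio, PM2.5 over control, from -0.24 (Tekt2) to 1.33 (Dynlrb2), with a median of 0.14. The 37 measured members with a window and no such letters had a median of 0.22. Members with the motif therefore lay on both sides of equality, as did the others.

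Across the 53 measured members, the PM2.5 library held more transcript of most of the set, by small amounts. The median log2 ratio was 0.22, against -0.09 over all 14518 tested genes, and 37 members had a ratio above 1. To be called higher or lower here, a gene had to differ by 1.5-fold and have a counting interval that leaves out a ratio of 1. By that rule 11 members (20.8%) were higher and 3 (5.66%) lower, against 14.9% and 19.1% of all tested genes, and 13.3% and 19.6% of the tested protein-coding genes. The share of lower members was thus below the background. The share of higher members was above it with all 53, but without the 20 whose exons overlap another listed gene, or that share over 5% of their 100-base words with another gene, 3 of 33 (9.09%) were higher and 2 (6.06%) lower. At 2-fold, 6 members (11.3%) were higher and none was lower, against 7.25% and 6.04% of all tested genes. Of these 6 (Ccdc39, Dnah17, Dnah3, Dynlrb2, Rsph10b and Rsph3b), all but Dynlrb2 are among those 20. Dnah17, counted in both the 11 and the 6, passed the level filter through the PM2.5 library alone, so it had to differ to enter. Of the 39 members called neither way at 1.5-fold, 20 had intervals above a ratio of 1, 9 below it and 10 across it.

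Summed over all listed members, the level was 1472 CPM in the PM2.5 library and 1315 CPM in the control library, a ratio of 1.12 (1.11 to 1.13). Tppp3, a tubulin polymerization promoting protein of ciliated cells, alone gave 23.4% of the members' counts in the PM2.5 library and 18.0% in the control library. Spag9, which acts outside the axoneme, gave 193 CPM with PM2.5 and 256 CPM in the control, where Tppp3 gave 345 and 237 CPM. Spag9 was thus the largest part of the control sum, and the sum is not of axoneme genes alone. Scaling bears on these directions: with library totals in place of TMM all log2 ratios shift by 0.23, and with the upper quartile by 0.14. The members' median then was 0.45 and 0.36, and that of all genes 0.14 and 0.05. With library totals none of the 3 lower members keeps its call.

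**Figure D1:**
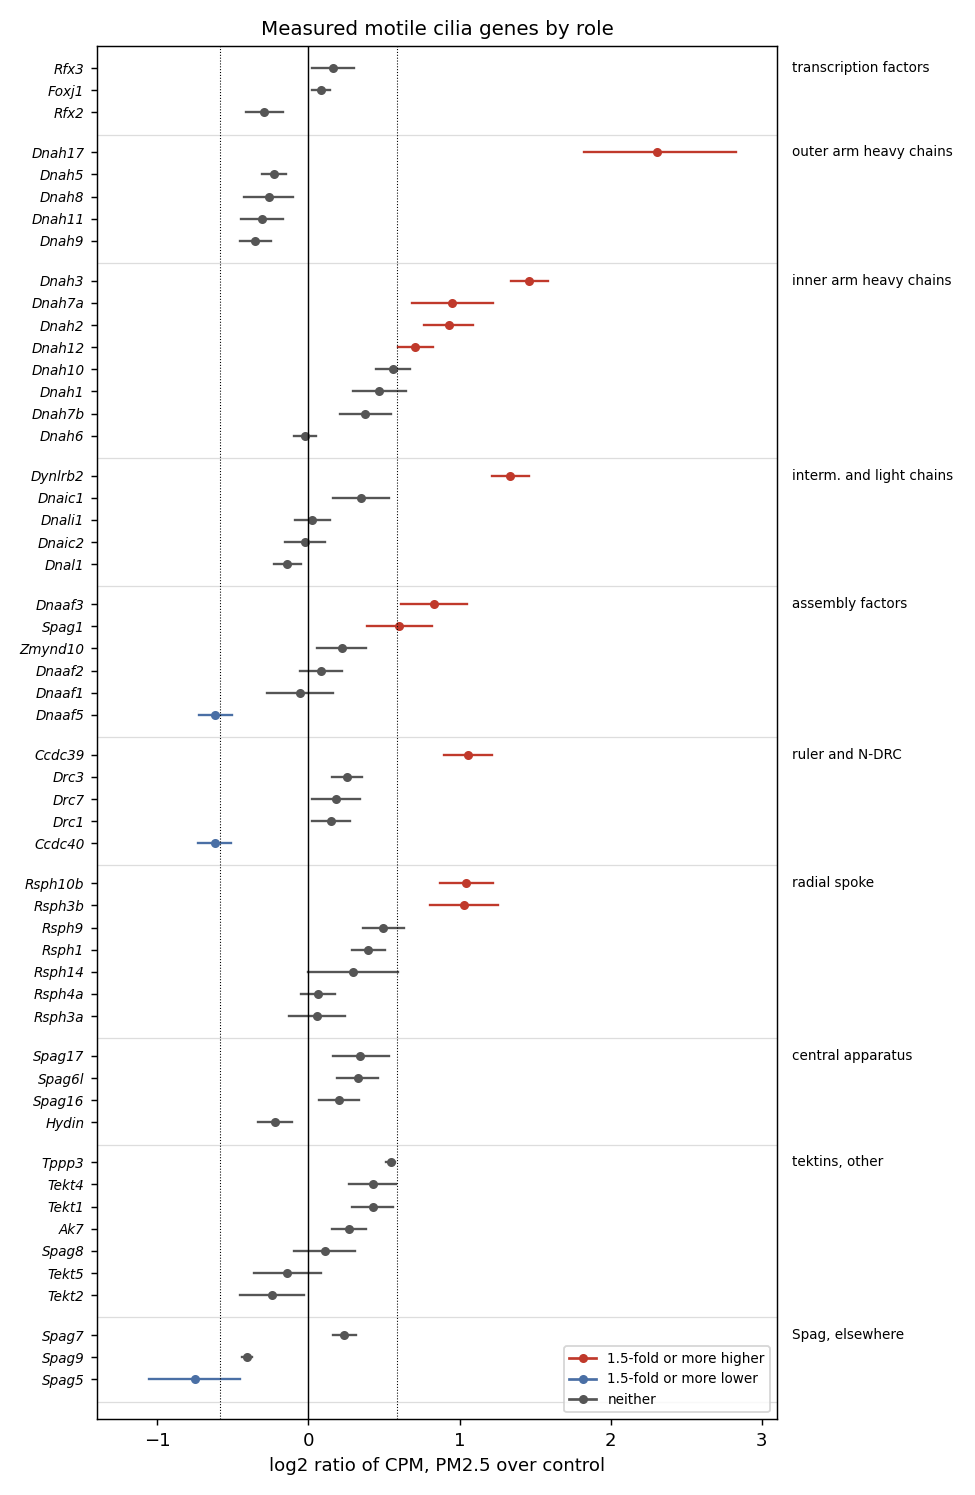
Log2 ratio of CPM, PM2.5 over control (x axis), for the 53 measured members grouped by role (y axis), with points for the ratio, lines for the exact 95% counting interval and dotted lines at 1.5-fold. Inner arm heavy chains lie at or right of equality, while the outer arm heavy chains other than Dnah17 lie left of it.

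Of the transcription factors, Foxj1 and Rfx3 lay a little above equality and Rfx2 below it. Foxj1, the main activator of motile ciliogenesis, had 4749 counts in the PM2.5 library and 4173 in the control library, a ratio of 1.06 (1.02 to 1.11). Rfx3 had 945 counts with PM2.5 and 786 in the control, a ratio of 1.12 (1.02 to 1.23). Rfx2, the third of this group, had 1003 and 1145 counts in the PM2.5 and control libraries, a ratio of 0.817 (0.749 to 0.890). None reached 1.5-fold.

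The dynein heavy chains, the motor subunits, differed by arm. Of 8 measured inner arm chains, 7 had ratios above 1 with intervals that leave out equality. Of these, 4 (Dnah3, Dnah7a, Dnah2 and Dnah12) were at least 1.5-fold higher, where 14.9% of all tested genes were called higher. Only Dnah12 of the 4 is outside the 20 members that may share reads with another gene. Of 5 outer arm chains, 4 had ratios below 1, between 0.784 and 0.853, and none of these reached 1.5-fold. The median log2 ratio was 0.63 for the inner arm and -0.26 for the outer arm, a difference of 0.90 that scaling does not touch. The outer arm direction depends on the processing. With library totals Dnah5 reaches equality, at 1.0. Once the trend with gene length is removed, all 4 pass above 1, at 1.04 to 1.15.

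Among inner arm chains, Dnah3 (ENSMUSG00000052273, GRCm38 chromosome 7, 119922671 to 120095280, minus strand) stood highest. It had 2106 counts in the PM2.5 library and 713 in the control library, a ratio of 2.75 (2.53 to 3.001). Per kilobase of exon its level was 2.37 CPM with PM2.5 and 0.860 CPM in the control. Of its exons, 10.5% overlap those of Lyrm1 on the opposite strand, and Lyrm1 had 230 counts with PM2.5 and 170 in the control. In the control library Dnah3 ranked below Dnah6, Dnah12 and Dnah10 among inner arm chains, and in the PM2.5 library it ranked below Dnah6 alone.

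Dnah2, which pairs with Dnah10 in the double-headed inner arm, had 977 counts with PM2.5 and 479 in the control (ratio 1.90, 1.70 to 2.13). Its partner Dnah10 had 1653 and 1044 counts in the PM2.5 and control libraries (1.48, 1.37 to 1.60), just under the 1.5-fold size. Both thus lay on the same side, by unlike amounts. Of the Dnah2 exons, 2.08% overlap those of Dnah2os on the opposite strand. Dnah2os had 80 counts with PM2.5 and 44 in the control. Dnah12, a single-headed inner arm chain, had 1658 counts in the PM2.5 library and 947 in the control library (1.63, 1.51 to 1.77). Dnah1, also single-headed, had 677 and 456 (1.38, 1.23 to 1.56). The exception was Dnah6, the chain with the highest level per kilobase in both libraries, at 3110 PM2.5 counts and 2944 control counts, whose ratio of 0.985 (0.936 to 1.04) could not be told from equality. Dnah7a, with 361 PM2.5 counts and 174 control counts (1.93, 1.61 to 2.33), and Dnah7b, with 699 and 502 (1.298, 1.16 to 1.46), share 19.1% and 14.3% of their 100-base words with other genes, mainly Dnah7c. Their separate values are uncertain, and together they had 1060 and 676 counts in the PM2.5 and control libraries (1.46, 1.33 to 1.61).

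On the outer arm, Dnah5 and Dnah9 are the chains of airway cilia and Dnah11 lies in the proximal part of the cilium. Dnah5 had 2385 counts with PM2.5 and 2607 in the control (0.853, 0.806 to 0.902). Dnah9 had 1448 PM2.5 counts and 1722 control counts (0.784, 0.730 to 0.841). Dnah11 had 801 in the PM2.5 library and 925 in the control library (0.807, 0.733 to 0.888). All 3 thus had ratios below 1, without reaching 1.5-fold. Of the Dnah11 exons, 4.44% overlap those of Cdca7l on the opposite strand. Cdca7l had 389 counts with PM2.5 and 544 in the control (0.6665), and its part in the Dnah11 value was not tested. Dnah8, known from sperm flagella, had 594 and 664 counts in the PM2.5 and control libraries (0.834, 0.745 to 0.933).

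Dnah17, the outer arm chain of sperm flagella in mouse and human (ENSMUSG00000033987, chromosome 11, 118021723 to 118130634, minus strand), went the other way. It had 218 counts in the PM2.5 library and 41 in the control library, a ratio of 4.96 (3.54 to 7.10). It passed the level filter through the PM2.5 library alone, so it had to differ to enter, and its level per kilobase, 0.217 CPM with PM2.5 and 0.0439 CPM in the control, stayed below that of the other outer arm chains. Its exons overlap 93 bp of those of Pgs1 on the opposite strand, which had 3783 counts with PM2.5 and 3424 in the control. Of 9 testis genes, such as Prm1, Tnp1 and Odf1, none reached a mean of 1 CPM, and 4 had no count in the PM2.5 library and 4 none in the control library. The protamine genes Prm1 and Prm2 had 2 and 1 counts with PM2.5, against 1 and 0 in the control, and Acr, the acrosomal protease gene, had 91 counts with PM2.5 and 15 in the control.

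Seen as a pool, outer arm chains made up 29.4% of the summed heavy chain level per kilobase in the PM2.5 library and 41.2% in the control library. The inner arm chains made up 70.6% and 58.8% in the PM2.5 and control libraries. These shares do not depend on the scaling between libraries, since they are formed within each one. Without Dnah17 the difference of medians was 0.92, and without chains whose exons overlap another listed gene or that share sequence with one it was 0.76. The latter value rests on Dnah1, Dnah6, Dnah10 and Dnah12 of the inner arm and on Dnah5 and Dnah8 of the outer arm alone.

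**Figure D2:**
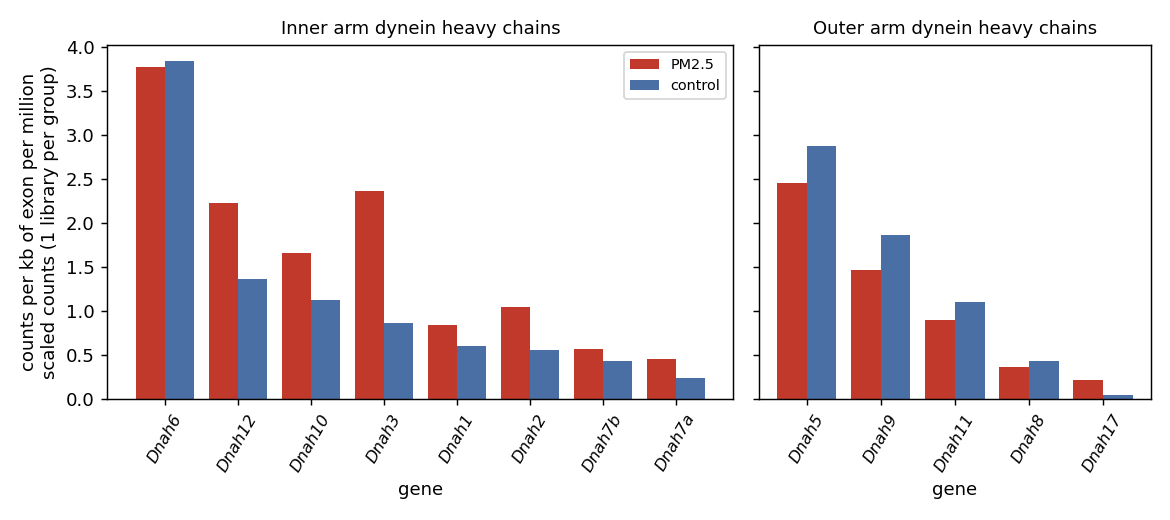
Level of each measured dynein heavy chain in CPM per kilobase of exon (y axis), with PM2.5 left of control, for the inner arm (left panel) and the outer arm (right panel), 1 library per bar. All inner arm chains other than Dnah6 have the taller bar in the PM2.5 library, and outer arm chains other than Dnah17 in the control library.

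Heavy chains are long, and the log2 ratio of all tested genes declined with exonic length (Spearman's rho = -0.31 over 14387 genes, which are not independent). Tested genes with at least 10000 bp of exon had a median log2 ratio of -0.40, and the tenth with the shortest exons one of 0.34. Measured heavy chains span 12009 to 26820 bp and had a median of 0.47. Inner arm chains thus lay above the long genes in general, and the outer arm chains of airway cilia lay near them. Among the 53 measured members rho was -0.09, and among the 40 that are not heavy chains it was -0.31. With the length trend removed, the members' median was 0.23, 15 were higher and none lower, and the difference between arms was 0.85. The median of all tested genes was then 0.0, and the share of them called was not computed for that setting.

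**Figure D3:**
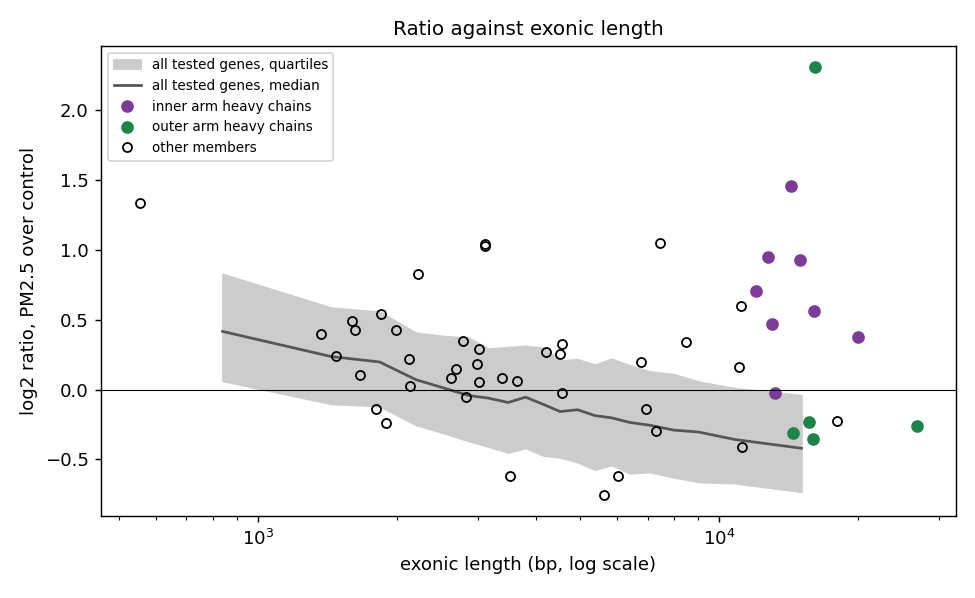
Log2 ratio, PM2.5 over control (y axis), against exonic length in bp (x axis, log scale), with the median and quartiles of all tested genes as a line and band. Within the band's span, inner arm chains lie above it or at its upper edge. Dnah10 and Dnah7b of the inner arm and the outer arm chains other than Dnah11 lie beyond its right end, and Dynlrb2 lies left of its start.

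The smaller dynein chains were mostly near equality. Dnaic1 and Dnaic2 encode the intermediate chains of the outer arm: Dnaic1 had 568 PM2.5 counts and 416 control counts (1.27, 1.12 to 1.45), and Dnaic2 942 and 893 (0.983, 0.896 to 1.08). The outer arm light chain Dnal1 had 1961 PM2.5 counts and 2013 control counts, a ratio of 0.908 (0.853 to 0.967), and the inner arm light chain Dnali1 one of 1.02 (0.938 to 1.10). The one member past 1.5-fold was Dynlrb2, a roadblock-type light chain whose promoter is printed above (ENSMUSG00000034467, chromosome 8, 116504974 to 116515915, plus strand). It had 2046 counts in the PM2.5 library and 756 in the control library, a ratio of 2.52 (2.32 to 2.75). Its paralog Dynlrb1, expressed in most cells, had 6019 PM2.5 counts and 4278 control counts (1.31, 1.26 to 1.36). Per kilobase, Dynlrb2 stood at 0.617 of the Dynlrb1 level in the PM2.5 library and at 0.321 in the control library.

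The 5 listed genes that dock or attach the outer arm all had ratios above 1. Ccdc114, a docking complex gene, had 918 counts with PM2.5 and 370 in the control (2.31, 2.05 to 2.62). Ccdc103 had 181 and 102 counts in the PM2.5 and control libraries (1.65, 1.29 to 2.13), and Ttc25 had 719 and 439 (1.53, 1.35 to 1.72). Ccdc151 and Armc4 had ratios of 1.41 and 1.27, below the 1.5-fold size. The list median was 0.61, and 3 of 5 were called higher, against 14.9% of all tested genes.

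Assembly factors of the dynein arms went both ways. Dnaaf3 had 499 counts with PM2.5 and 262 in the control (1.78, 1.53 to 2.07), and Spag1 480 and 295 (1.52, 1.31 to 1.76). Dnaaf5 was lower, with 1155 PM2.5 counts and 1651 control counts (0.652, 0.604 to 0.703). The other 3, Zmynd10, Dnaaf2 and Dnaaf1, had ratios of 1.16, 1.06 and 0.963. Dnaaf3 shares 86 bp of exon on the same strand with Tnni3, the cardiac troponin gene, which had 2370 counts in the PM2.5 library and 1094 in the control library (ratio 2.02). The part of its reads in the Dnaaf3 value was not tested. Of 6 measured genes in a further list of assembly factors, among them Lrrc6, Cfap300 and the chaperone ATPases Ruvbl1 and Ruvbl2, none passed 1.5-fold, with ratios of 0.869 to 1.32.

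Ccdc39 and Ccdc40 encode partner proteins that form the molecular ruler setting the repeat of inner arms and spokes, and they lay on opposite sides. Ccdc39 (ENSMUSG00000027676, chromosome 3, 33812362 to 33844310, minus strand) had 1031 counts in the PM2.5 library and 463 in the control library, a ratio of 2.08 (1.86 to 2.32). Ccdc40 (ENSMUSG00000039963, chromosome 11, 119228572 to 119265238, plus strand) had 1209 and 1734 counts in the PM2.5 and control libraries, a ratio of 0.650 (0.603 to 0.700). Ccdc39 per kilobase was 0.691 of Ccdc40 in the PM2.5 library and 0.216 of it in the control library. Of the Ccdc39 exons, 16.9% overlap those of Ttc14 on the opposite strand. Ttc14 had 5780 PM2.5 counts and 1478 control counts (3.64-fold higher), the strand setting of the counting is unknown here, and the part of Ttc14 reads in the Ccdc39 value was not tested.

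The nexin-dynein regulatory complex members Drc1, Drc3 and Drc7 had ratios of 1.11, 1.19 and 1.14, each with an interval above 1. Drc1, the most abundant of them per kilobase, had 1139 counts with PM2.5 and 957 in the control. In the list of its other subunits, 3 of 6 genes were higher, against 14.9% of all tested genes. They were Fbxl13 at 2.29 (1.87 to 2.81), Iqcd at 1.92 (1.46 to 2.54) and Iqca at 1.62 (1.46 to 1.80). Gas8 and Tcte1 lay below 1, at 0.909 and 0.745, without reaching 1.5-fold.

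All 7 measured radial spoke genes had ratios above 1, with a median log2 ratio of 0.40. Of them 2 passed 1.5-fold, where 14.9% of all tested genes were called higher, and both are among the 20 members that may share reads. Rsph10b had 870 counts with PM2.5 and 393 in the control (2.06, 1.83 to 2.33). It shares 85 bp of exon on the same strand with Pms2, which had 770 PM2.5 counts and 666 control counts. It also shares 7.3% of its 100-base words with Gm42421, and the part of either in its value was not tested. Rsph3b, a stalk gene, had 521 and 238 counts in the PM2.5 and control libraries (2.04, 1.75 to 2.39). Its close copy Rsph3a had 509 and 456 (1.04, 0.915 to 1.18). Since 46.1% of the 100-base words of Rsph3b are found in Rsph3a and 44.7% of those of Rsph3a in Rsph3b, the split between them is uncertain, and together they had 1030 and 694 counts in the PM2.5 and control libraries (1.38, 1.26 to 1.53). The spoke head genes Rsph9, Rsph1 and Rsph4a had ratios of 1.41, 1.32 and 1.05, the last with an interval across 1. Rsph1 was the most abundant spoke gene per kilobase, at 1626 counts in the PM2.5 library and 1152 in the control library, and Rsph14 stood at 1.22 (0.998 to 1.505). Rsph6a, the spoke gene of sperm, had no count in either library, which allows up to 0.0482 CPM with PM2.5 and 0.0517 CPM in the control.

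In the central apparatus no measured gene passed 1.5-fold. Spag17 had 568 PM2.5 counts and 417 control counts (1.27, 1.12 to 1.44), and Spag6l 1047 and 778 (1.25, 1.14 to 1.38). Spag16 had a ratio of 1.15, and Hydin, the long gene of a central pair projection, had 1210 PM2.5 counts and 1317 control counts (0.856, 0.791 to 0.927). Spag6, the paralog of Spag6l, had 2 counts with PM2.5 and 3 in the control and was not measured.

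Tektins and other doublet proteins had a median of 0.27, and none passed 1.5-fold. Tppp3, the most abundant member per kilobase, had 21461 counts in the PM2.5 library and 13733 in the control library (1.46, 1.43 to 1.49). Tekt1 and Tekt4 both had a ratio of 1.34. Ak7, an adenylate kinase of cilia, had one of 1.20. Spag8 stood at 1.08 with an interval across 1. Tekt2, with 362 PM2.5 counts and 399 control counts (0.846, 0.731 to 0.977), and Tekt5, at 0.908 (0.779 to 1.06), lay below 1. Tekt3 had 26 and 36 counts in the PM2.5 and control libraries and was not measured.

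Some Spag genes that the rule takes act outside the axoneme. Spag5, which encodes astrin of the mitotic spindle, had 154 PM2.5 counts and 242 control counts (0.593, 0.481 to 0.729). The cell division list lay on the same side, where 10 of 11 genes were lower and 0 higher and the median was -0.95 (Mki67 at 0.342). Lower calls made up 19.1% of all tested genes. Spag9, a scaffold of MAP kinase signalling, had 12003 and 14842 counts in the PM2.5 and control libraries (0.754, 0.736 to 0.772), and Spag7 had 3059 and 2417 (1.18, 1.12 to 1.24). Spag11b, a defensin-like gene known from the epididymis, had 38 counts with PM2.5 and none in the control. Its ratio was 11.8 against a floor of 3 counts per library, and its exact counting interval starts at 9.14. Spag4 had 31 and 16 counts in the PM2.5 and control libraries. Spag11a and Dnah14 had no count in either.

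Other genes of motile cilia had more calls on the higher side than on the lower, where all tested genes had 14.9% higher and 19.1% lower. The CFAP family held 11 higher and 0 lower genes among 29 measured, and its median was 0.37. Cfap65 had 2499 counts with PM2.5 and 719 in the control (3.24, 2.98 to 3.52), and Cfap100 1081 and 312 (3.23, 2.84 to 3.68). Cfap43, with 2589 PM2.5 counts and 1091 control counts, stood at 2.21 (2.06 to 2.38). The 18 other measured CFAP genes did not pass 1.5-fold. The other ciliated cell genes, 20 in all, held 5 higher and 0 lower and a median of 0.41. They were led by the cadherin Cdhr4 at 2.21, Pifo at 1.76 and Ccdc153 at 1.75, and the abundant Sec14l3 and Tubb4b had ratios of 0.987 and 1.07.

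Transport genes of cilia, which the primary cilia of other cells also use, had medians on both sides of equality. Among 14 intraflagellar transport genes the median was -0.12, none was higher, and Ift122 was lower at 0.592 (0.548 to 0.640). That median turns to 0.11 with library totals, 0.02 with the upper quartile and 0.03 with the length trend removed, and the Ift122 call is lost with library totals and without the length trend. The BBSome, a membrane cargo complex, gave 2 higher genes of 11, 1 lower (Bbs9 at 0.621) and a median of 0.16, with 9 ratios above 1. In cytoplasmic dynein 2, the motor of return transport, 1 of 5 genes was higher, and the median was 0.07. Among all tested genes 14.9% were higher and 19.1% lower.

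Regulators of multiciliated cell differentiation, which act before FOXJ1 or on centriole amplification, were mixed. Mcidas, which encodes the coregulator multicilin (multicilin opens the program with E2F factors), had 25 counts with PM2.5 and 105 in the control, a ratio of 0.222 (0.137 to 0.346). It passed the filter through the control library alone. Ccno, needed for centriole amplification, had 136 and 229 counts in the PM2.5 and control libraries (0.554, 0.444 to 0.687). Deup1, of the deuterosome that seeds centrioles, had 218 and 340 (0.598, 0.502 to 0.711). The centriole kinase gene Plk4 had 357 PM2.5 counts and 531 control counts (0.627, 0.546 to 0.718).

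Under the level filter, Foxn4 had 20 counts with PM2.5 and 53 in the control (0.352, 0.199 to 0.598), and Cdc20b 18 and 38 (0.442, 0.237 to 0.793). Gmnc, which acts upstream of Mcidas, went the other way, with 259 PM2.5 counts and 156 control counts (1.55, 1.26 to 1.90). Ccp110, which caps centrioles, was higher too at 1.60 (1.49 to 1.72). Of 11 measured genes, 4 were lower and 2 higher, with a median of -0.16, against 19.1% lower and 14.9% higher among all tested genes. With library totals 2 were lower and 3 higher. The list median turns to 0.07 with library totals and to 0.03 with the length trend removed. Some of these genes, Plk4 among them, are also used by dividing cells, and the cell division list was lower as given above. Its part in these values was not tested.

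**Figure D4:**
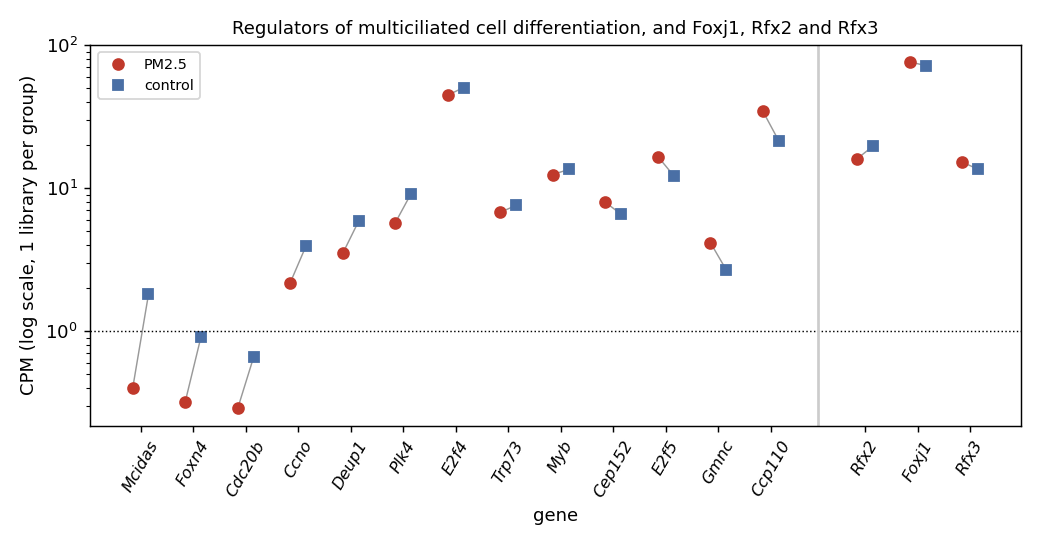
CPM on a log scale (y axis) of the regulators of multiciliated cell differentiation, ordered by ratio, and of Foxj1, Rfx2 and Rfx3 at the right (x axis), with circles for PM2.5 and squares for control, 1 library each. For Mcidas, Foxn4, Cdc20b, Ccno, Deup1 and Plk4 the circle lies below the square, and the dotted line marks 1 CPM.

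Lists of other airway and lung cell types, here and in the next paragraph, had medians on both sides of equality. The club cell list, 7 secretory cell genes, held 4 higher and 0 lower (median 0.63), and its summed level was 39080 CPM in the PM2.5 library and 25550 CPM in the control library. Of 3 measured airway basal cell genes, 2 were higher, and Krt5, Krt14 and Trp63 were under the filter at 89, 70 and 79 counts with PM2.5, against 18, 3 and 29 in the control. The 5 measured goblet cell genes held 2 higher and 1 lower (median 0.20). By the same rule 14.9% of all tested genes were higher and 19.1% lower.

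The epithelium list, with Epcam and Cdh1, had a median of -0.15 and no gene past 1.5-fold, and its sign turns with library totals (0.08). Alveolar type 2 and type 1 genes had medians of -0.28 and -0.18, and the type 1 median also turns with library totals (0.05). The median of the endothelial list was -1.26, and 5 of its 6 genes were lower, against 19.1% of all tested genes. The mesothelium list, a lining that other tissue pieces could add, had a median of 0.03. No defining marker of the airway, alveolar, endothelial or mesothelial lists was at 0 in either library. The part of a changed share of airway tissue or cells in the ciliary values was not tested.

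**Figure D5:**
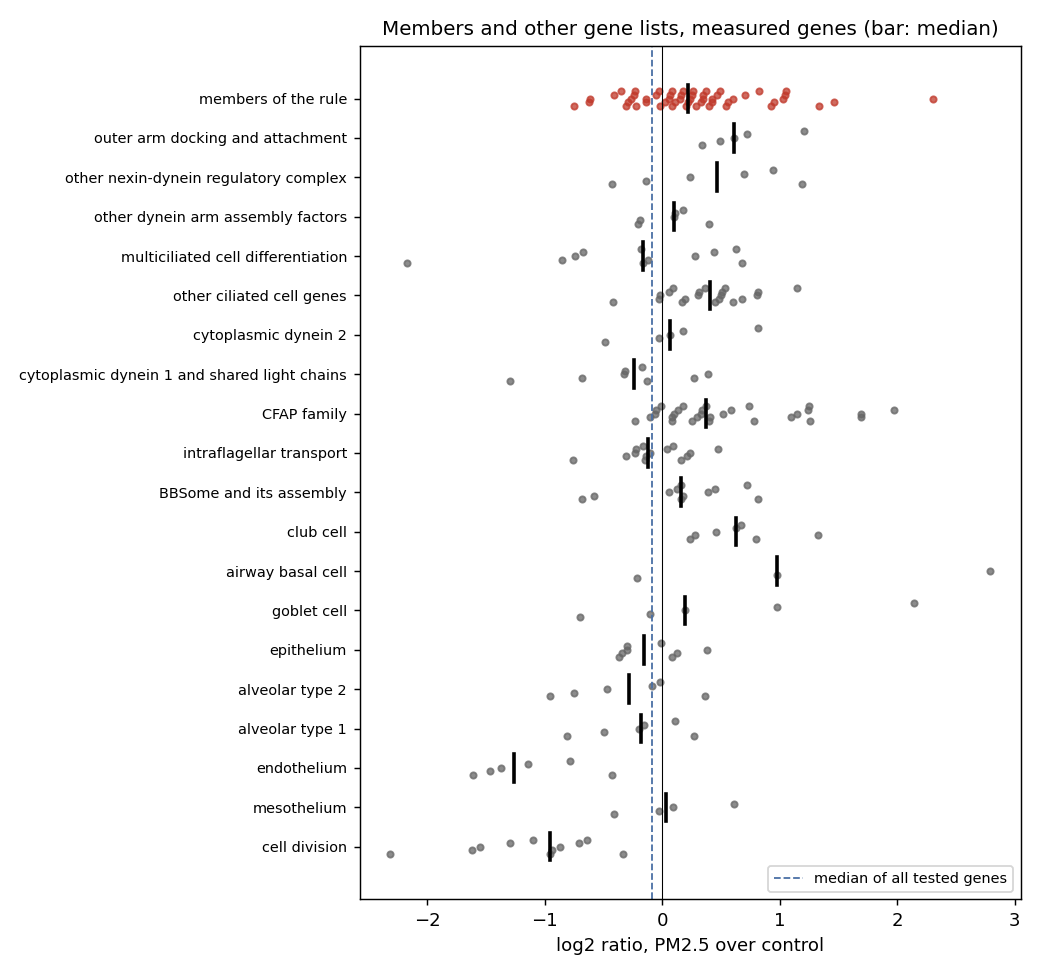
Log2 ratio, PM2.5 over control (x axis), of the measured members and of the measured genes of each other list (y axis), with 1 point per gene, a bar at the median and a dashed line at the median of all tested genes. The members, the CFAP family and the other ciliated cell genes have medians of 0.22, 0.37 and 0.41.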

How the data were processed

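RNA was measured in 1 PM2.5 and 1 control library of mouse lung. The stress label gave each group. Purified mRNA went into stranded libraries read as pairs, per the labels' protocols. The authors deposited raw counts per Ensembl gene, without normalization, and TopHat2 2.1.1, HTSeq 0.6.0 and mm10 are named in the submitters' processing notes. Neither the gene annotation nor the strand option used for counting is named in these notes.

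Symbols, positions and exonic lengths (union of exons) came from GENCODE M21 (GRCm38), which named 35449 of 37315 identifiers. TMM factors from edgeR 4.0.16, 1.08 for PM2.5 and 0.923 for control, scaled the totals. The ratio of CPM, its exact interval and the floor of 3 counts for a count of 0 were computed in Python 3.11.15 with scipy 1.17.1, and checked on simulated data. There is no replicate, so no test and no p-value is given. Reads are not independent molecules.

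The members and lists were chosen with earlier results of these data known. Every measured member is accounted for. Values in both libraries were to be given for members past 1.5-fold, for the most abundant, highest and lowest member of each role group, and for Foxj1, Rfx2, Rfx3, Dnah5, Dnaic1, Hydin and Tppp3, and of each other list the called genes and up to 4 of the most abundant could be named. Spag11b, Foxn4, Cdc20b, Acr, Prm1, Prm2, Krt5, Krt14 and Trp63, and any other gene outside that rule, were chosen after their values were seen. Alternatives were DESeq2 1.42.0 size factors, library totals and the upper quartile, other filters (none, or 10 CPM), a 2-fold size, removal of the length trend (lowess, statsmodels 0.14.6), the deeper library thinned, and the members without Spag genes that act elsewhere. Leaving out members that may share reads with another gene, and leaving out Dnah17, were added after seeing the data. Shared sequence is the share of a gene's 100-base words found in transcripts of another gene.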

Additional observations from a re-analysis of the deposited data

How the results depend on the processing

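The inner minus outer arm difference stayed between 0.76 and 0.99 in every alternative in which it was computed, and the members' median between 0.18 and 0.45. With library totals, which shift all log2 ratios by 0.23, 19 members were higher and 0 lower, and the median was 0.45. The median of all genes was 0.14 there. Shares of all genes called were computed for the main setting and at 2-fold only, so member counts under other settings have no background beside them. Upper quartile scaling gave 1 lower and a median of 0.36. A mean of at least 10 CPM left 6 higher members, since fewer genes are tested, and 6 other lists with a median above 0, against 11. Lists with too few genes at that level got no median. Among them were the outer arm docking, other nexin-dynein regulatory complex, airway basal and goblet cell lists, whose medians lay above 0 in the main setting. At 2-fold 6 were higher and 0 lower, and of these 6 only Dynlrb2 is outside the 20 members that may share reads. With the length trend removed 0 were lower and the outer arm median turned to 0.17. Without the 20 members whose exons overlap another listed gene or that share over 5% of their 100-base words, 3 of 33 (9.09%) were higher (Dnah12, Dynlrb2 and Spag1), a share below the 14.9% of all tested genes. The intraflagellar transport median turned to 0.11 with library totals, 0.02 with the upper quartile and 0.03 without the length trend. The differentiation list's turned to 0.07 with library totals, 0.16 at 10 CPM and 0.03 without the length trend. Further assembly factors turned from 0.11 to -0.19 at 10 CPM and -0.06 without the length trend, and mesothelium from 0.03 to -0.03 at 10 CPM. The medians of the epithelium and alveolar type 1 lists turned to 0.08 and 0.05 with library totals, and that of the Spag genes that act elsewhere to 0.24 without a filter, where rare members enter. All 11 higher members kept their call under each of the 3 other scalings and with the length trend removed. Library totals and the upper quartile raise all log2 ratios, by 0.23 and 0.14, and DESeq2 size factors shift them by -0.01. The 3 scalings could thus hardly take a higher call away. No paired analysis was possible because there is 1 library per group. Counting error limits the precision of rare members such as Dnah17 and of rare listed genes such as Mcidas, and the variation between animals is unknown.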

Other observations

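The heavy chains of cytoplasmic dynein, motors of transport inside the cell and not of ciliary beating, lay below equality, unlike the inner arm chains. Dync1h1, of cytoplasmic dynein 1, had 13566 counts in the PM2.5 library and 31009 in the control library, a ratio of 0.408 (0.400 to 0.416). Dync2h1, of the dynein that returns cargo along cilia, had 1585 PM2.5 counts and 2069 control counts, a ratio of 0.714 (0.668 to 0.763). Both genes are long, and tested genes with at least 10000 bp of exon had a median log2 ratio of -0.40. Dync2h1 lay near that, at -0.49, and Dync1h1 lay below it, at -1.29. The part of gene length in the contrast with inner arm chains was not tested. In the cytoplasmic dynein 1 list 2 of 8 genes were lower, Dync1h1 and Dync1li1 (0.621), none was higher, and the median log2 ratio was -0.24. Of all tested genes 19.1% were lower. Among the CFAP genes, Cfap97d2, which passed the level filter through the PM2.5 library alone, had 156 PM2.5 counts and 37 control counts (3.93, 2.73 to 5.79), and Cfap65 had the highest ratio (3.24) of those at 1 CPM or more in both libraries. Cfap97d1 had 13 counts with PM2.5 and 0 in the control.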
